A study of Mus musculus with 4 samples.

Results

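Monocytes 2 was 1 of 16 clusters into which the authors sorted the CD45+ leukocytes of 20967 melanomas, and its members were the cells that carry this name in the deposited cell table. It held 118 of 4108 cells, of which 116 came from control tumors and 2 from tumors treated with a glucocorticoid (GC). The cells expressed the monocyte genes that go with the name, Ly6c2, Ccr2 and Chil3, but at levels also found in the cluster Monocytes 1. The genes that set Monocytes 2 apart from Monocytes 1, from neutrophils and from tumor-associated macrophages (TAM) were led by Adgre4 and Ace, which belong to the list of Ly6C-low monocyte genes. Macrophage genes, MHC class II genes and genes for several cytokines and chemokines were lower than in Monocytes 1 or TAM.

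The 20967 line came from C57BL/6 mice with the Nras+LSL-G12D allele and the Tyr::CreERT2+/o transgene, in which the tyrosinase promoter drives an inducible Cre, and tumors were raised from it by intradermal injection into C57BL/6 wild-type hosts. In the control group 5 tumors received the control treatment, and in the GC group 5 tumors received clobetasol propionate, a potent GC. A hashtag, an antibody that carries a DNA barcode, was given to the cells of each tumor before live CD45+ cells were sorted and the 5 tumors of a group pooled, so that a tumor could be used as a replicate. The control pool entered one 10x Genomics channel with 17100 cells loaded and the GC pool another with 3500, so treatment and channel cannot be told apart. The tumors were taken 4 days after treatment, and the age and sex of the mice were not given in the sources used here.

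Monocytes are made in the bone marrow and circulate in mouse blood as Ly6C-high and Ly6C-low cells. Ly6C-high monocytes carry the chemokine receptor CCR2, follow its ligands into inflamed skin and tumors, and can turn into macrophages there. Ly6C-low monocytes arise from them under the nuclear receptor Nr4a1, crawl along the vessel wall with the integrin LFA-1, and are known for Ace, Treml4, Adgre4, Spn (CD43) and high Cx3cr1.

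The 3 marker genes handed down with the name were present in all control tumors. Levels are given as unique molecular identifiers (UMIs, captured RNA molecules) per 10000 UMIs of a cell, averaged over the cells of a tumor, in control 1 to control 5 in that order. Ly6c2, a surface glycoprotein of inflammatory monocytes, stood at 10.5, 6.18, 7.66, 9.22 and 9.70, against a mean of 10.4 in Monocytes 1, 1.80 in TAM and 0.561 in neutrophils. Ccr2 stood at 12.7, 10.6, 11.9, 11.9 and 11.3, and its mean was 10.7 in Monocytes 1 and 10.9 in TAM. Chil3, a chitinase-like secreted protein, stood at 4.07, 6.79, 4.97, 15.3 and 15.1, and its mean was 4.20 in Monocytes 1 and 0.581 in TAM. The means of Monocytes 1 thus fell inside the range of the Monocytes 2 tumors for each marker. All 3 markers were higher than in neutrophils, and Ly6c2 and Chil3 were higher than in TAM. CD8 1, a T cell cluster, also held Ly6c2, at a mean of 6.57.

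Lineage genes placed the cells in the myeloid compartment. The summed level of 10 myeloid genes was 115 to 140 per 10000 in Monocytes 2, against 60.9 to 69.2 in Monocytes 1 and 57.4 to 68.5 in TAM. Most of this gap lay in Lyz2, which encodes lysozyme, at 57.1, 59.4, 62.2, 74.1 and 68.3 in the control tumors against a mean of 12.9 in Monocytes 1. Of the 10 genes, Lyz2 and Cybb were higher than in Monocytes 1 and in TAM by the fold rule given below, 6 were neither, and the Fc receptor genes Fcgr1 (0.913 against 3.77 in Monocytes 1) and Fcgr3 (2.06 against 5.04) were lower. Over all genes tested, 9.12% were higher and 10.9% lower than in Monocytes 1, and 8.94% higher and 10.5% lower than in TAM. Counts this small lie near those shares. Genes of other cells were near 0. The 7 T cell genes summed to at most 0.390 per 10000, the 6 endothelial genes to at most 0.226, and the 6 proliferation genes to at most 0.142. The 8 dendritic cell genes summed to 0.143 to 1.76. The 12 neutrophil genes summed to 2.29 to 4.41, and within that list the defining S100a8 and S100a9 had means of 0.0348 and 0.0167 and Cxcr2 had no UMI in any control tumor. The 6 melanocyte genes summed to 0.617 to 1.14, below the 1.93 to 2.80 of Monocytes 1.

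The cells were about as deep as the other mononuclear cells. The median cell of a control tumor had 12466 to 13995.5 UMIs and 3307 to 3608 genes, and mitochondrial genes held 1.73% to 2.37% of UMIs. Monocytes 1 had medians of 11531 to 13139.5 UMIs and 3085 to 3278 genes, so that in genes per cell every Monocytes 2 tumor lay above those of Monocytes 1, and the part of this in the gene differences was not tested. TAM had medians of 12280.5 to 13401 UMIs and 3409.5 to 3613.5 genes, and neutrophils 3906 to 4482.5 UMIs, so low genes were measured less well in neutrophils. The replicates are separate tumors, and p-values below come from tests over tumors. No p is given for gene levels between clusters, because the authors formed the clusters from these genes.

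Genes were then compared between Monocytes 2 and each of the 3 other clusters within control tumors. A gene counted as higher where the mean log2 difference was at least 1 and the difference was above 0 in every tumor used, with 0.1 per 10000 added to each mean, and as lower by the mirror rule. Control 5 had only 4 Monocytes 1 cells and did not enter that comparison. Against Monocytes 1, 364 of 3992 genes tested (9.12%) were higher and 437 (10.9%) were lower. Against TAM, 366 of 4095 were higher and 432 lower, and against neutrophils 1424 of 4013 were higher and 589 lower. The median difference over all genes tested was 0.09, 0.03 and 0.63 in the same order. Fold changes below are ratios after 0.1 is added and understate the change of genes near 0.

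The 15 genes that stood furthest above all 3 clusters included 7 of the Ly6C-low monocyte list, namely Adgre4, Ace, Ear2, Cd36, Ceacam1, Treml4 and Pou2f2. Adgre4 (ENSMUSG00000032915, GRCm38 chr17:55749984-55853662, plus strand) encodes an adhesion G protein-coupled receptor of myeloid cells. Its level was 6.33, 6.97, 3.33, 5.43 and 4.61 in the control tumors, and the highest tumor value was 0.163 in Monocytes 1 and 0.198 in TAM. The ranges did not overlap, and the mean difference was 4.83 ± 0.44 on the log2 scale (SD, n = 4 tumors), or 28.4-fold, against Monocytes 1. Ace (ENSMUSG00000020681, chr11:105967945-105989964, plus strand), the angiotensin-converting enzyme, was at 2.10, 2.74, 1.29, 2.90 and 3.49. It reached at most 0.138 in a tumor of Monocytes 1 and 0.0488 in TAM, and it had no UMI in neutrophils of any control tumor. The mean log2 difference of Ace was 3.88 ± 0.86 against Monocytes 1 and 4.50 ± 0.54 against TAM.

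The other genes of this set have varied roles. Stxbp6, which binds SNARE proteins of the secretory machinery, was at 4.26, 5.77, 6.93, 4.75 and 3.47, 23.7-fold above Monocytes 1. Ldlrad3, a receptor of the LDL receptor family, was at 3.49, 5.35, 3.07, 4.28 and 5.53, 15.0-fold above Monocytes 1. Grk5, a kinase that turns off G protein-coupled receptors, was at 7.73, 4.97, 11.1, 9.44 and 10.6, 7.97-fold above Monocytes 1. Each of these had every Monocytes 2 tumor above every tumor of the other clusters. Pou2f2 (OCT2), a transcription factor also known from B cells, was at 6.24, 6.81, 4.20, 6.98 and 4.23 against a mean of 0.915 in Monocytes 1. Pparg, a lipid-sensing nuclear receptor, ran from 0.235 in control 3 to 2.83 in control 5, a wide spread for a gene with a mean of 0.0209 in Monocytes 1. Cd36, a fatty acid receptor, ran from 0.973 to 4.59, and Hpgd, which inactivates prostaglandins, from 0.582 to 3.38. Slc12a2, an ion cotransporter, had a mean of 1.33 ± 0.383 (SD, n = 5) and Add3, a protein of the membrane skeleton, one of 4.47 ± 0.852. Ear2 (1.66 ± 0.889) has near-identical paralogs, and Gm15987 (4.02 ± 0.660) is annotated antisense to Clec2g, whose reads cannot be told apart from it where strand is not used, so both values are uncertain.

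**Figure D1:**
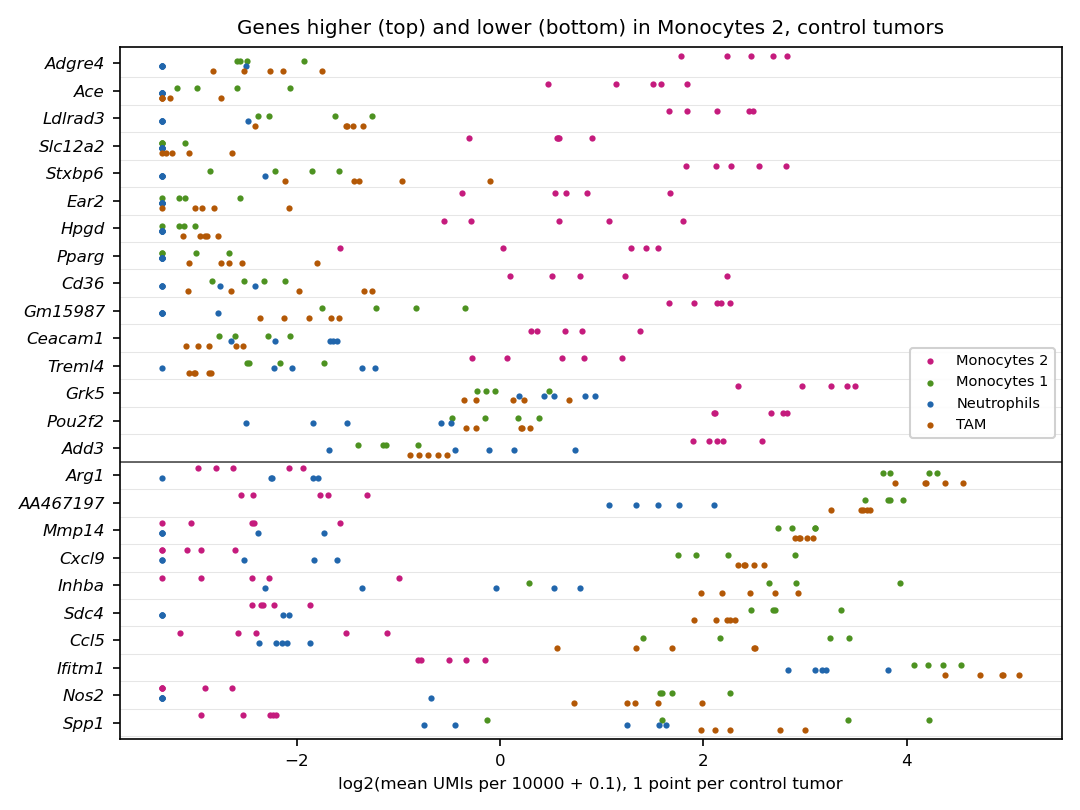
Level of the 15 genes furthest above all 3 clusters (top) and the 10 furthest below Monocytes 1 (bottom), as log2 of the mean UMIs per 10000 plus 0.1, with a point for each control tumor of Monocytes 2, Monocytes 1, neutrophils and TAM. Before the log, Adgre4 lies between 3.33 and 6.97 in the Monocytes 2 tumors and at or below 0.198 in every tumor of Monocytes 1 and TAM.

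Promoters are shown for Adgre4 and Ace, the genes that lead the cluster. RefSeq (GRCm38.p6) gave 19 windows, each with 250 bases before and 50 after a start site, for 14 of the 15 genes. The windows are chr17:55749734-55750033 for Adgre4 and chr11:105967698-105967997 for the upstream start of Ace, both on the plus strand and printed 5′ to 3′. Capitals mark the reverse complement of the PU.1 box GAGGAAGT, and motifs were searched on both strands.
Adgre4: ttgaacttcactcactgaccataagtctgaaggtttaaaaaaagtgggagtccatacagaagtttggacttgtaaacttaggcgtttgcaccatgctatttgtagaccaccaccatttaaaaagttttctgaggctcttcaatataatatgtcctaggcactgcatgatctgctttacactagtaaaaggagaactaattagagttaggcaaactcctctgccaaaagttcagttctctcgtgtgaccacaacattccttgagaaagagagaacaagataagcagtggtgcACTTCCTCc
Ace: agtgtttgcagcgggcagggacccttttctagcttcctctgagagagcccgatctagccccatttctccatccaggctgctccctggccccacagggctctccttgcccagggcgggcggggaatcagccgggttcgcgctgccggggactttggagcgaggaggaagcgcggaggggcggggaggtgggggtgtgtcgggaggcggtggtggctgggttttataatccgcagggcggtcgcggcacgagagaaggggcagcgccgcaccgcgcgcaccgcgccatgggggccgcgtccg
The PU.1 box was found in 1 of the 19 windows, that of Adgre4, and in 3.2% of 32851 mouse promoter windows of this length. The NR4A monomer site AAAGGTCA was in 0 of 19 windows (1.51% of all) and the KLF box CCACACCC in 0 of 19 (3.56%). The C/EBP motif TTNCNNAA, a loose pattern, was in 10 of 19 (40.7% of all). These are matches of letters only.

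The lists are compared first with Monocytes 1, the larger monocyte cluster. Of the Ly6C-low monocyte list, 12 of 14 genes tested were higher than in Monocytes 1 and 1, Fcgr4, was lower in the comparison in which 9.12% of all genes tested were higher. The median of this list was 2.55, against 0.09 over all genes tested. The summed list stood at 35.6 to 57.2 per 10000 in Monocytes 2 and at 9.45 to 12.2 in Monocytes 1. Nr4a1, the nuclear receptor on which Ly6C-low monocytes depend and also an immediate early gene, was at 15.8, 10.4, 11.6, 14 and 12 against a mean of 2.10 in Monocytes 1, but neutrophils held it at 10.0 to 12. Spn was at 0.826, 1.28, 1.08, 1.75 and 1.42 and Cx3cr1, the fractalkine receptor, at 2.91, 3.24, 2.50, 4.10 and 4.09, against means of 0.154 and 0.867 in Monocytes 1. Of the Ly6C-high list 2 of 10 genes tested were higher and 0 were lower, with a median of 0.31. Mgst1, a microsomal glutathione transferase, was one of them, at 1.69, 1.56, 1.95, 1.56 and 2.04 against 0.374 to 0.608 in Monocytes 1. F13a1, the coagulation factor XIII A chain, was at a mean of 8.45 against 11.6 in Monocytes 1, within a 2-fold change.

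**Figure D2:**
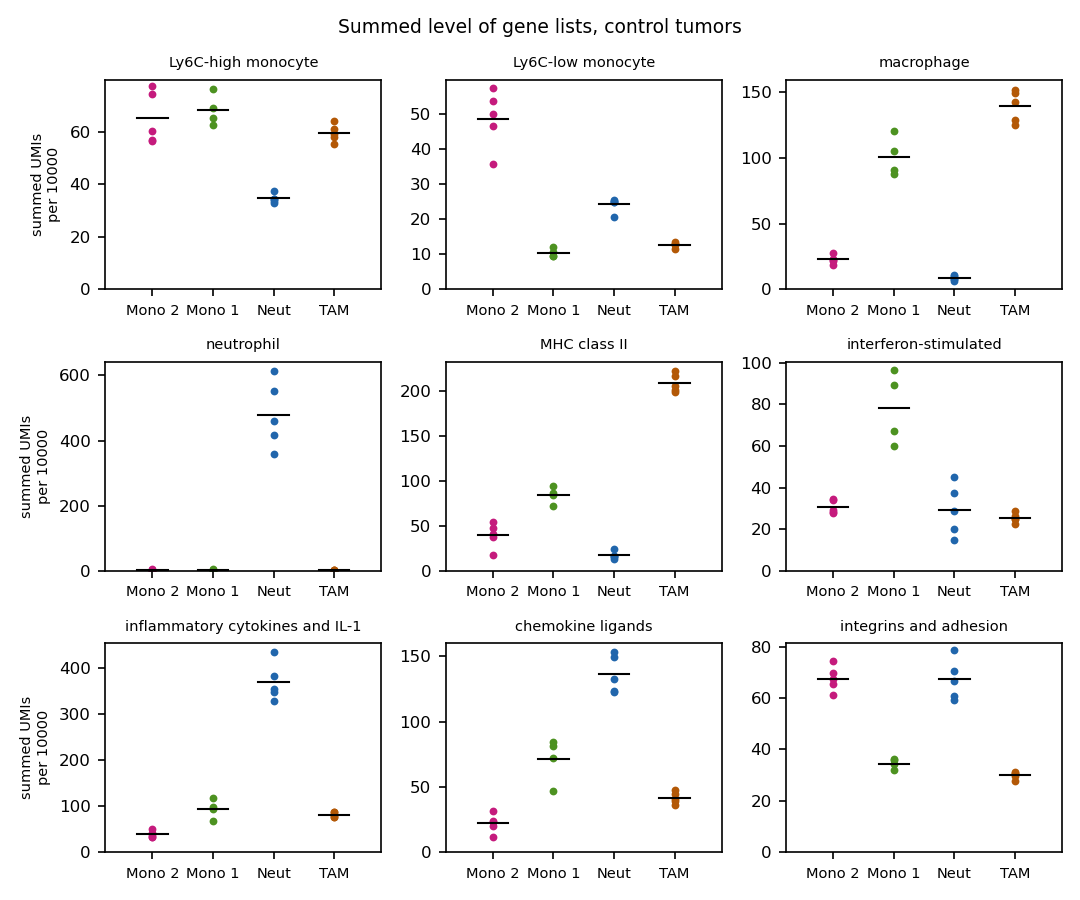
Summed level of 9 gene lists in UMIs per 10000 for Monocytes 2 (Mono 2), Monocytes 1 (Mono 1), neutrophils (Neut) and TAM, with a point for each control tumor and a bar at the mean, each panel on its own axis from 0. Monocytes 2 tumors sum to 35.6 to 57.2 for the Ly6C-low list and to 18.8 to 27.7 for the macrophage list, where TAM reach 125 to 152.

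Transcription factors and adhesion molecules were also higher in part. Of 19 transcription factors tested against Monocytes 1, 6 were higher and 3 lower, where 9.12% of all genes tested were higher and 10.9% lower, so the count of lower factors is near that of all genes. Klf2, which restrains activation of myeloid cells, was at 4.98, 6.26, 6.12, 4.63 and 4.62 against a mean of 0.355 in Monocytes 1 and 0.646 in TAM, and it ranged from 3.16 to 11.8 in neutrophils. Klf4, which monocyte formation needs, was at 5.53, 5.54, 6.40, 5.97 and 6.01, and its mean was 1.69 in Monocytes 1. Among the lower factors were Runx3, with a mean of 1.55 against 6.26, and Tcf7l2, with 1.84 against 5.09. Tcf7l2 was not low in all cells of the cluster, as given below. Of 14 integrin and adhesion genes, 7 were higher and 1 lower, with a median of 0.91. Itgal, the alpha chain of LFA-1, was at 7.90, 7.44, 6.25, 8.22 and 7.91 against 1.60 to 2.56 in Monocytes 1. Itga4, a chain of VLA-4, was at 8.34, 9.11, 8.37, 10.8 and 11.0 against 1.44 to 2.17. Cd44, the hyaluronan receptor, was at 24.8 to 32.2 against 8.68 to 14.7. Both integrin ranges were separate from those of Monocytes 1 and TAM.

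Macrophage genes were low. Of 11 macrophage genes tested against Monocytes 1, 9 were lower and 1, Adgre1 (F4/80), was higher, with a median of −2.46. In that comparison 10.9% of all genes tested were lower and 9.12% higher. Against TAM, 12 of 13 were lower and 0 higher, where 10.5% of all genes tested were lower and 8.94% higher. Arg1, the arginase of suppressive macrophages, was the gene furthest below Monocytes 1. It was at 0.0615, 0.0436, 0.160, 0.0277 and 0.137 in Monocytes 2 and at 13.6 to 19.7 in Monocytes 1 and 14.7 to 23.4 in TAM, a mean log2 difference of −6.62 ± 0.68 against Monocytes 1. Tgfbi, a matrix protein induced by TGFβ, was at 8.83, 7.40, 8.35, 4.86 and 5.02 against 36.5 to 41.6 in Monocytes 1. C1qa, a chain of complement C1q, was at a mean of 0.167 against 2.70 in Monocytes 1 and 10.3 in TAM, and Apoe, which carries lipids, at 6.94 against 11.2 and 32.9. The 10 genes furthest below Monocytes 1 were Arg1, AA467197, Mmp14, Cxcl9, Inhba, Sdc4, Ccl5, Ifitm1, Nos2 and Spp1. Ifitm1, an interferon-induced membrane protein, was at 0.607, 0.471, 0.805, 0.484 and 0.694 against 16.7 to 23 in Monocytes 1. Nos2, the inducible nitric oxide synthase, had no UMI in 3 of 5 tumors and at most 0.0605, against 2.88 to 4.70. Mmp14, a membrane-bound collagenase, was at 0.0858 against 7.68, and Spp1 (osteopontin) at 0.0884 against 8.22, although Spp1 spread from 0.817 to 18.5 between Monocytes 1 tumors.

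Genes of antigen presentation, of the interferon response and of inflammation followed. The MHC class II list also holds the costimulatory genes Cd86, Cd80 and Cd40. Of its 10 genes tested, 6 were lower than in Monocytes 1, Cd40 among them. Against TAM, 9 were lower, Cd86 and Cd80 among them, with 0 higher in either comparison. Over all genes tested, 10.9% were lower and 9.12% higher than in Monocytes 1, and 10.5% lower and 8.94% higher than in TAM. Cd74, the invariant chain, was at 21.6, 7.68, 15.7, 18.1 and 4.53 against 27.6 to 34.1 in Monocytes 1 and 72.3 to 82.9 in TAM. Monocytes 2 was below both in every tumor, with control 5 the lowest. Of 17 interferon-stimulated genes, 13 were lower and 0 higher than in Monocytes 1, with a median of −1.69. Against TAM, however, 1 of 11 was lower and 2 were higher. Isg15, a ubiquitin-like interferon product, was at 1.31, 1.17, 0.787, 1.30 and 0.749, against a mean of 5.67 in Monocytes 1 and 0.678 in TAM. Cxcl10, which attracts T cells, was at 3.81 in control 1 and 0.25 to 0.565 in the other 4 tumors, against 6.07 to 11.7 in Monocytes 1.

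Of 12 inflammatory genes 5 were lower and 0 higher than in Monocytes 1, where 10.9% of all genes tested were lower and 9.12% higher. Il1b was at 14.4, 14, 12.6, 26.2 and 18.9, below the 28.7 to 49.9 of Monocytes 1, the 38.5 to 42.1 of TAM and the 160 to 210 of neutrophils. Il1rn, which encodes the IL-1 receptor antagonist, was at a mean of 1.19 against 12.6, and the decoy receptor Il1r2 at 0.954 against 6.22 and, in neutrophils, 63.6. Ptgs2, the inducible cyclooxygenase, was at 1.60 against 13.8. Of 11 chemokine ligands, 5 were lower and 1, Ccl6, was higher than in Monocytes 1. Ccl6 was at 8.93, 5.47, 7.69, 5.75 and 9.03 against 0.614 to 1.69. Cxcl9 and Ccl5, both of which attract T cells, were at means of 0.0224 and 0.156 against 4.75 and 6.77. Of 9 receptors for chemokines, sphingosine phosphate and other attractants, 6 were lower and 1, Cx3cr1, higher. Among the lower were Ccr1 (1.34 against 7.48) and, from the other attractant receptors, Cmklr1, Fpr2 and C5ar1. Cd274 (PD-L1), an inhibitory ligand of T cells, was at 0.277, 1.60, 0.426, 0.696 and 0.377 against 8.33 to 10.3 in Monocytes 1.

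Some smaller groups ran against these trends. Of 12 GC response genes tested in control tumors, 5 were higher and 4 lower than in Monocytes 1, so the list had no common direction. Over all genes tested 9.12% were higher and 10.9% lower. Zbtb16, one of the 5, was at 1.21, 0.964, 0.433, 1.25 and 0.909 against at most 0.0503, and Tsc22d3 (GILZ) at 3.35, 1.94, 1.99, 2.27 and 1.25 against 0.572 to 0.851. Ddit4, one of the 4, was at a mean of 0.114 against 2.31. Bcl2, a survival gene, was at 1.26, 1.5, 0.698, 1.28 and 1.21 against 0.137 to 0.336, whereas its relative Bcl2l1 was lower, at 0.115 against 1.02. Cybb, the catalytic chain of the phagocyte oxidase, was at 16.4 to 22.7 against 5.43 to 9.43, and the inhibitory receptor Cd300a at 3.71 to 5.92 against 0.266 to 0.434.

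Against neutrophils, 9 of 10 neutrophil genes tested were lower and 0 higher, where 35.5% of all genes tested were higher and 14.7% lower. S100a8 and S100a9, the calprotectin chains, had means of 184 and 204 per 10000 in neutrophils. Of 11 inflammatory genes, 9 were lower than in neutrophils and 2 higher. Of the Ly6C-high list 6 of 10 were higher and 2 lower. Several genes that set Monocytes 2 apart from Monocytes 1 were not apart from neutrophils. Cd44 was at 27.9 to 41.3 in neutrophils, Ccl6 at 8.08 to 11.8, Cd300a at 3.59 to 6.25 and Nr4a1 at 10.0 to 12, each overlapping the range of Monocytes 2.

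Cells of the cluster were not alike in these genes. In the 116 control cells the summed Ly6C-low list without Nr4a1 and the summed Ly6C-high list ran in opposite directions, with Spearman's rho of −0.64 over 116 cells and of −0.69, −0.51, −0.52, −0.85 and −0.72 within the 5 tumors. In Monocytes 1 the same rho was −0.27 over 311 cells. Both sums come from the same library and the same UMI total of a cell, so these are descriptions. Correlated with the rest of the Ly6C-low list, Ace had a rho of 0.76, Adgre4 of 0.75 and Itgal of 0.69, and F13a1 had −0.74, Fn1 −0.60, Ly6c2 −0.57 and Ccr2 −0.53. Each of these 7 genes kept its sign in all 5 tumors.

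Cells were also counted by detection. The UMIs of both genes of a pair were added, so a cell could pass for a pair on a single gene. With 3 UMIs or more as the limit, 18 cells (15.5%) had the pair Ace and Adgre4 without the pair Ly6c2 and Ccr2. Of the rest, 48 (41.4%) had only Ly6c2 and Ccr2, 47 (40.5%) had both pairs and 3 had neither. Each control tumor held 3 or 4 of the 18 cells, and 16 cells lay next to the limit, with 2 or 3 UMIs of Ace and Adgre4. The limit was set on these counts, and whether the 18 cells are a separate set or the end of a range was not tested. Of 311 Monocytes 1 cells, 6 had both pairs and 0 had only Ace and Adgre4, which allows a share of up to 0.965%. The median cell of the 18 had 9380.5 UMIs, that of the 47 had 14078 and that of the 48 had 13021. After each cell was thinned to 2000 UMIs, Ace or Adgre4 was detected in 49.1% of Monocytes 2 cells, 2.93% of Monocytes 1, 2.68% of TAM, 0% of 149 neutrophils, which allows up to 2.01%, and 0.601% of CD8 1 cells, a T cell cluster that should lack them. Without thinning these shares were 69.0%, 12.9%, 6.92%, 0.617% and 0.580%, at median depths of 12800, 12410, 12883, 4220.5 and 6342 UMIs, and 0, 4, 13, 13 and 18 cells were too shallow to thin.

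**Figure D3:**
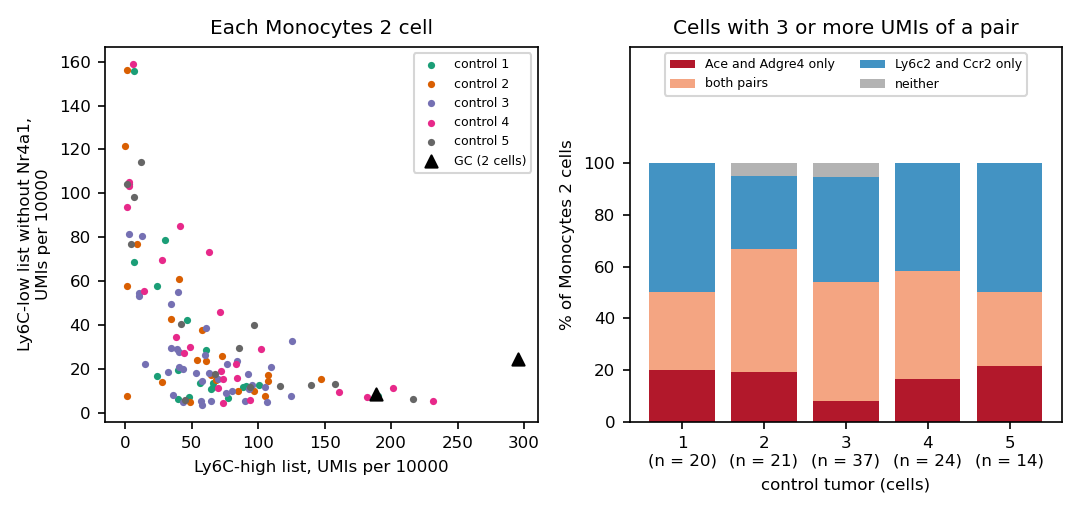
Each point is 1 Monocytes 2 cell, placed by the summed level of the Ly6C-high list and of the Ly6C-low list without Nr4a1, in UMIs per 10000. Each control tumor has a color, and triangles mark the 2 GC cells. The bars give the percent of the cells of each control tumor with 3 UMIs or more, summed over the genes of a pair. The control cells form a falling band with a rho of −0.64, and cells of all 5 tumors lie along it.

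Along this range other genes shifted as well. The median level of F13a1 was 0 per 10000 in the 18 cells, 3.97 in the 47 and 14 in the 48. Fn1 (fibronectin) followed with 0, 5.07 and 13, and Thbs1 (thrombospondin) with 0, 8.27 and 17.1. Itgal ran the other way, with 19.9, 8.94 and 2.44. Lyz2 was 24.5, 74.3 and 78.7, so it was lowest where Ace and Adgre4 stood alone. Bcl2, Slc12a2 and Cd36 had medians of 5.46, 5.27 and 5.39 in the 18 cells and 0 in both other sets. Stxbp6, which leads the cluster beside Ace, had medians of 0, 5.10 and 5.94, the pattern of F13a1, while Klf2 stayed at 3.21, 4.72 and 3.38.

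The genes that set the cluster apart were therefore counted again without the cells that had 3 UMIs or more of Ace and Adgre4 together. This choice was made after the data were seen. Against Monocytes 1, the 44 cells left in 4 tumors gave 324 higher genes, of which 239 were among the 364, or 65.7% of the longer list and 73.8% of the shorter. They gave 466 lower genes, of which 378 were among the 437. Adgre4 and Ace no longer counted as higher, as the choice of cells fixes, and neither did Slc12a2, Ear2, Hpgd, Pparg, Cd36, Treml4, Spn, Itgal, Pglyrp1 and Bcl2. Of these, Itgal and Cd36 were still tested, at 0.46 ± 0.74 and 1.17 ± 1.92 on the log2 scale (SD, n = 4), and the rest fell under the minimum of 0.5 per 10000. Among the latter, the difference was still 2.18 ± 0.54 for Hpgd, 1.77 ± 1.06 for Pparg and 1.07 ± 0.40 for Spn, and it was −0.06 ± 0.11 for Slc12a2, −0.20 ± 1.24 for Treml4 and −0.41 ± 1.06 for Bcl2. Ldlrad3, Stxbp6, Ceacam1, Grk5, Pou2f2, Add3, Nr4a1, Klf2, Klf4, Lyz2, Cybb, Itga4, Cd44, Ccl6 and Zbtb16 were still counted as higher.

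The share of the cluster was compared between GC and control tumors over tumors. Monocytes 2 made up 20 of 796, 21 of 839, 37 of 1250, 24 of 571 and 14 of 347 CD45+ cells in the control tumors, or 2.51%, 2.50%, 2.96%, 4.20% and 4.03%. In GC tumors it was 0 of 18, 0 of 75, 1 of 111, 1 of 22 and 0 of 79, or 0.901% and 4.55% in GC 3 and GC 4 and none in the other 3, where a count of 0 allows a share of up to 16.7%, 4% and 3.80%. In 4 of 5 GC tumors the share was below all control tumors, and GC 4, with 22 cells in all, was above them. The mean was 3.24% ± 0.823 (SD, n = 5) in control and 1.09% ± 1.97 (SD, n = 5) in GC tumors, a difference of −2.15 percentage points with p = 0.0556 in an exact two-sided permutation test, whose smallest possible p was 0.00794, and 0.111 after Benjamini-Hochberg adjustment over 2 tests. Without GC 4 the difference was −3.02 points (exact p = 0.00794, adjusted 0.0159, 4 of 4 tumors lower), so this tumor with its single Monocytes 2 cell decided the call. That run was 1 of 10 that each left out a tumor, so its p is not a separate test. Pooled, the share was 3.05% (116 of 3803, exact 95% interval 2.53% to 3.65%) in control and 0.656% (2 of 305, 0.0795% to 2.35%) in GC cells, intervals that cover counting error only. Membership of a cluster can shift where its genes respond to treatment, and this was not tested.

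The ratio to Monocytes 1 did not differ beyond the spread. The log2 ratio of Monocytes 2 to Monocytes 1 cells, with 0.5 added to each count, was −0.86 ± 1.48 (SD, n = 5) in control and −1.83 ± 2.37 (SD, n = 4) in GC tumors, GC 1 having neither cluster (exact permutation p = 0.437, adjusted 0.437). GC 2 to GC 5 held 7, 9, 0 and 2 Monocytes 1 cells, with 0, 1, 1 and 0 Monocytes 2 cells. The single cell of GC 4 gave it a ratio of 1.58. Without GC 4 the difference was −2.10 (exact permutation p = 0.0714). That run was 1 of 9 that each left out a tumor, so its p is not a separate test. Among control tumors, Monocytes 2 made up 21.1%, 22.8%, 22.0%, 32.0% and 73.7% of the 3 monocyte clusters, since control 5 held 14 Monocytes 2 but only 4 Monocytes 1 cells.

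**Figure D4:**
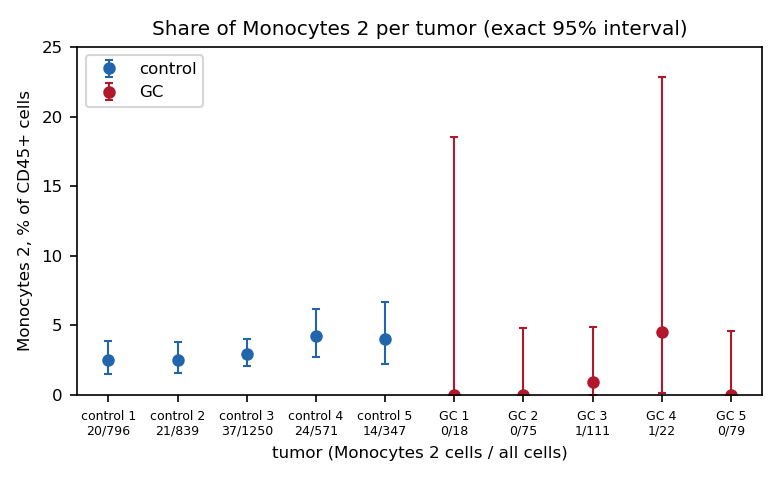
Share of Monocytes 2 among CD45+ cells in each of the 5 control and 5 GC tumors, in percent, with exact 95% binomial intervals for counting error. Control tumors lie between 2.50% and 4.20%, and GC tumors at 0%, 0%, 0.901%, 4.55% and 0%.

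Hashtag UMIs, which took no part in the clustering, report how much of the tagged antibody a cell bound. The median cell of Monocytes 2 carried fewer than that of TAM in 5 of 5 control tumors, 0.619-fold on average (log2 difference −0.69 ± 0.11, SD, exact sign-flip permutation p = 0.0625, adjusted 0.0938). It carried fewer than Monocytes 1 in 4 of 4 tumors, 0.823-fold (−0.28 ± 0.14, exact p = 0.125, adjusted 0.125), and more than neutrophils in 5 of 5, 1.10-fold (0.13 ± 0.13, exact p = 0.0625, adjusted 0.0938). All 3 p-values were the smallest that 4 or 5 tumors allow, so the design could not reach 0.05. Per RNA UMI the comparison with neutrophils turned round, to −1.47 on the log2 scale, neutrophils being shallower in RNA.

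Expression under GC rests on 2 cells, 1 with 12728 UMIs from GC 3 and 1 with 7210 UMIs and 46 hashtag UMIs, against 462 in the other, from GC 4. They were pooled as 1 sample with no replicate, so values carry exact 95% Poisson intervals for counting error and no test. A gene counted as past the fold where the pooled log2 difference was at least 1 in size and the GC value lay outside the range of the control tumors. By this rule 30.6% of 5405 genes were higher and 22.6% lower and the median difference was 0.31. A single UMI among the 19938 of the GC pool was enough to pass the filter of 0.5 per 10000. Genes could thus enter through the GC cells and count as higher by sampling alone. The part of this in the 30.6% and the median was not tested. With 0.5 in place of 0.1 added the counts were 765 higher and 1061 lower, against 1655 and 1223, so that the larger side changed.

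Against that background, 9 of 13 GC response genes were higher and 2, Sgk1 and Cebpd, lower, with a median of 1.99. Fkbp5, which encodes a chaperone of the GC receptor, had 5 UMIs in the GC 3 cell and 12 in the GC 4 cell, 8.53 per 10000 (4.97 to 13.7) against 0.577 to 0.750 in control tumors. Tsc22d3 had 9 and 6 UMIs and Klf9 had 5 and 6. Ddit4 had 3 and 4 UMIs, and it was at 0 in 104 of 116 control cells. Both cells thus held UMIs of these 4 genes, while Mt1 (42 and 0) and Il1r2 (46 and 1) came almost wholly from the GC 3 cell.

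The genes named by size were split in the same manner. Ecm1, an extracellular matrix protein, had 4 and 8 UMIs and Abca6, a lipid transporter, 6 and 4, and no control cell reached either value per 10000. Rgs1, a regulator of G protein signaling, had 35 UMIs in GC 3 and 0 in GC 4, so without the GC 3 cell its difference reversed to −2.36, and that of Mt1 to −3.54. Il1b, Cd74, Ifrd1, Slfn5 and Trim30a had 0 UMIs in both cells, which allows up to 1.5 per 10000 with 3 counts as the limit. Their control tumor ranges were 12.4 to 26.8, 4.96 to 23.3, 7.48 to 11.7, 5.25 to 8.37 and 4.14 to 8.24. Single control cells at 0 were not rare, 9 of 116 for Il1b and 20 of 116 for Cd74.

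Under GC, 22.6% of all genes tested were lower and 30.6% higher. Lower were 11 of 12 interferon-stimulated genes and, with Cd80 among them, 7 of 8 genes of the MHC class II list. So were 7 of 8 MHC class I genes, 6 of 7 chemokine ligands and 6 of 9 inflammatory genes. Medians of these groups, in that order, were −3.42, −3.23, −2.03, −3.23 and −2.89, and 0 were higher except for Il1r2 among the last. The 2 cells held 19938 UMIs in all, so genes of low level can have 0 UMIs, and count as lower, by sampling alone. Others can pass the filter on a single UMI and count as higher. The part of this in the counts and medians was not tested. On the Ly6C axis, 5 of 10 Ly6C-high genes were higher and 1, Ly6c2, was lower. F13a1 had 34 and 56 UMIs, Fn1 63 and 38 and Vcan, a matrix proteoglycan, 14 and 25. Chil3 had 224 UMIs in the GC 3 cell, or 176 per 10000, where the highest control cell had 88.7, and 0 in the GC 4 cell. Adgre4, Ear2, Treml4 and Spn had 0 UMIs in both, and Ace had 3 and 0, within its control range. With 2 cells from 2 tumors and another channel, these values cannot be told apart from the place of the cells along the range from Ly6c2 to Ace.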

How the data were processed

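CD45+ leukocytes of 5 control and 5 GC tumors were profiled by 10x Genomics 3′ single cell RNA sequencing with tumor hashtags. The authors counted UMIs with Cell Ranger 7.1.0 on mm10 with intron reads included, and clustered in Seurat 5.0.3 under R 4.3.1 (versions per the submitters' processing notes). Cells with 1 hashtag were kept and outliers removed, so doublets within a tumor remained and no further doublet caller was run. Whether counting used strand was not given in the sources used here. In the expression table deposited, a value is a natural log, taken after the UMI count was scaled to 10000 per cell and 1 was added. The cell table deposited by the authors gives the count of UMIs, genes and hashtag UMIs, the percent of mitochondrial UMIs, the tumor and the cluster name. Whole UMIs were recovered for 100% of values, summing to the listed total in all 4108 cells, over 32285 genes and with 0 cell barcodes shared between channels.

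Cells of a tumor were averaged per 10000, and the tumor was the replicate. The hashtag numbers only name tumors. Gene differences used log2(mean + 0.1), genes of at least 0.5 per 10000 in either cluster and tumors with 5 cells or more of both. Tumor values were compared by exact permutation tests with Benjamini-Hochberg adjustment. The members and the 32 gene lists were chosen with earlier results of these data known. The genes named were the 15 furthest above all 3 clusters, the 10 furthest below Monocytes 1, the 5 highest and 5 lowest under GC, and any list member. Gene positions are those of GENCODE M21 (GRCm38), whose release differs from the annotation the authors counted on. The code was tested on simulated data. Python 3.11.15, numpy 2.4.6, scipy 1.17.1, pandas 2.3.3 and matplotlib 3.10.9 were used. Alternatives changed the pseudocount, the filter on low values, the averaging, the denominators and left out each tumor.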

Additional observations from a re-analysis of the deposited data

Results flagged for a closer look

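Of 58 groups of tumor values checked for a tumor far from the others by Dixon's test, 9 held one. The rate of about 1 in 20 for this test holds for independent and normal values. Groups here overlap and some rest on few cells, so the 9 cannot be set against that rate. Control 5 stood apart in the make-up of its monocytes, with Monocytes 2 at 73.7% of the monocyte clusters against 21.1% to 32.0% in the other 4, and with a log2 ratio to Monocytes 1 of 1.69 against −1.80 to −0.86. GC 4 stood apart with Monocytes 2 at 4.55% of CD45+ cells against 0% to 0.901%, and at 11.1% of myeloid cells against 0% to 1.85%, both from 1 Monocytes 2 cell.

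Among gene levels in Monocytes 2, control 4 had 13.1 per 10000 of Apoe against 4.63 to 6.20 in the other tumors. The same tumor had 5.47 of the interferon-stimulated gene Rsad2 against 0.753 to 1.23, and 1.42 of Gbp2, another such gene, against 0.264 to 0.347. Control 1 had 3.81 of Cxcl10 against 0.25 to 0.565, and control 3 had 1.75 of Il1r2 against 0.642 to 0.961. The part of single cells in these values was not tested.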

How the results depend on the processing

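Counts of genes past a fold depend on how low values are treated. Against Monocytes 1, 172 genes were higher and 281 lower with 0.5 added, 235 higher at a mean of at least 1 per 10000, and 91 higher and 114 lower with means of the log values. Against neutrophils the higher genes were 870, 852 and 475 in these settings and 2400 without a filter, and the lower were 165 with log values. Against TAM, 211 were higher and 277 lower with 0.5 added, and 106 and 119 with log values. Under GC, 2878 genes past the fold became 1826, 1646 and, without a filter, 5026. Hashtag UMIs relative to RNA UMIs turned the difference from neutrophils to −1.47.

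Leaving out each tumor gave 359 to 409 higher and 443 to 456 lower genes against Monocytes 1, 1447 to 1488 and 595 to 620 against neutrophils, 355 to 382 and 426 to 443 against TAM, and 2877 to 3566 under GC. Hashtag differences ran from −0.35 to −0.24, 0.08 to 0.16 and −0.73 to −0.66, and the ratio to Monocytes 1 from −2.10 to −0.27. The share difference ran from −3.02 (without GC replicate 4, exact permutation test, adjusted p = 0.0159) to −1.88 points. With tumors of at least 20 cells it was −1.88, as a share of myeloid cells −3.45 and as a share of the monocyte clusters −6.82 points, with adjusted p from 0.222 to 0.754 in the exact permutation test. Without GC replicate 3, Rgs1 became −2.36 and Mt1 −3.54, and without GC replicate 4 they were 5.75 and 4.83. On comparisons, 113 other values were labeled as held. For counts of genes this meant staying within a fixed ratio of the main count, and 17 counts did not. For tested differences it meant the same sign and test outcome. On named genes, 325 values kept their direction within the spread, and 78 kept it but moved further. The spread was the SD over tumors or, under GC, the Poisson interval. Size was not kept in all of the tested differences among the 113. They include the −6.82 points as a share of the monocyte clusters, against −2.15 as a share of CD45+ cells. They also include the ratio differences of −2.10 to −0.27, against −0.96 with all tumors. No paired analysis was possible because the hashtag numbers name different mice in the 2 groups. The 2 GC cells limit every value under GC, and the causes were not tested.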
